A study of Homo sapiens with 2 samples.

Results

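The broad peaks of KDM1B were the regions of the deposited peak list that were 5 kb or wider (end minus start) on chromosomes 1 to 22 and X. The rule found 1113 of the 78504 peaks on those chromosomes (1.42%), out of 78536 in the whole list. They are described beside 4966 peaks of 2 to 5 kb and 72425 peaks under 2 kb. The members were chosen by their measured width, which comes from the same comparison of ChIP with input that gave the list, so the widths and ratios of the members are a description and support nothing.

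KDM1B, also called LSD2, is a flavin-dependent demethylase that removes methyl groups from lysine 4 of histone H3. Unlike its paralog KDM1A it has been described along the bodies of transcribed genes as well as at promoters, where it works beside factors of transcription elongation and the methyltransferases of lysine 36.

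The study used the triple-negative breast cancer cell line MDA-MB-231, stably expressing KDM1B with a 3XFLAG tag from the retroviral vector pOZ. Chromatin was crosslinked and sonicated, 1 library was made after precipitation with the anti-FLAG M2 antibody, and 1 input library came from cells with the same tagged protein. Cells without the tag were not analysed here, so binding of the antibody or beads without KDM1B was not measured, and the sources used here do not say whether the cells were a clone or a pool. With 1 library per group there was no replicate error and no test of any difference below. Intervals are exact 95% Clopper-Pearson intervals, cover counting error only, and regions and genes are not replicates.

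As listed, the broad peaks as a rule started inside genes, some kb past the promoter. The start itself lay under a narrower peak or none. Promoter stretches of 4 genes are shown because they mark this border in the list. In GCN1, NUP155 and DNMT1 the stretch was overlapped by a narrower peak. The nearest broad peak began 2.82, 5.48 and 13.1 kb inside these genes. In NUP155 the narrower peak ended at -0.135 kb from the start (negative values upstream) and the next began at 0.572 kb. In GCN1 and NUP155 all gaps between peaks from the stretch to the broad peak were below 1 kb. With peaks within 1 kb joined, a wide region would cross both stretches, so the border there depends on how peaks were listed. In POMT1, an exception, a broad peak ran across the stretch. That peak lay mostly over the upstream gene PRRC2B on the same strand (12.2 kb) and reached 3.54 kb into POMT1. Each stretch is the 150 bases upstream of the RefSeq start (GRCh38.p14), 5′ to 3′ on the strand of the gene. CG pairs, the sites of DNA methylation, are in capitals.
GCN1 (chr12:120194716-120194865, minus strand): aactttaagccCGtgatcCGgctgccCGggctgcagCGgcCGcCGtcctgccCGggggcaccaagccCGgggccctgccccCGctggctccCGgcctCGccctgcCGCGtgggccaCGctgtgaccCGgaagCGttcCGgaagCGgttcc
NUP155 (chr5:37371107-37371256, minus strand): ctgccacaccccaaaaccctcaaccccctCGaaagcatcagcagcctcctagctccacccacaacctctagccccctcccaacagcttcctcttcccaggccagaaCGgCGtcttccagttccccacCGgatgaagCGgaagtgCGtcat
DNMT1 (chr19:10194954-10195103, minus strand): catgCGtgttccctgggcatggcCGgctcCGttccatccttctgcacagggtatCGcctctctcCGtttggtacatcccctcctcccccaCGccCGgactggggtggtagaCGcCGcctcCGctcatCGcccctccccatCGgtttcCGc
POMT1 (chr9:131502768-131502917, plus strand): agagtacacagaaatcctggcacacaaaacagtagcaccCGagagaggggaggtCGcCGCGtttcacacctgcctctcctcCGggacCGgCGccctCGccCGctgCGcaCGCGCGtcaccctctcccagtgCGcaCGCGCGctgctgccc
These stretches held 18 CG pairs in GCN1, 6 in NUP155, 13 in DNMT1 and 17 in POMT1. GCN1 activates the kinase GCN2 on stalled ribosomes, NUP155 is a scaffold protein of the nuclear pore, DNMT1 copies DNA methylation after replication, and POMT1 attaches mannose to proteins.

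The members covered 10.01 Mb, 11.7% of all bases under peaks. Their median width was 7.12 kb (quartiles 5.82 and 9.84 kb). Most stood close to the limit: 337 were 5 to 6 kb wide, 332 were 6 to 8 kb, 176 were 8 to 10 kb, 228 were 10 to 20 kb and 40 were 20 kb or wider. Those just inside the limit lay in NISCH (5001 bp), GOLGA3 (5002 bp) and PTPRF (5004 bp), and those just outside in ARID1A and NBPF20 (both 4994 bp) and MYH9 (4991 bp). NBPF20 belongs to a family of near-identical copies, so its peak is uncertain.

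The log2 ratio of ChIP over input, the authors' value for each peak, had a median of 3.28 in the broad peaks (quartiles 3.01 and 3.56, SD 0.42, range 2.205 to 5.03). In the narrower peaks the median was 2.96 (quartiles 2.58 and 3.52, SD 0.81, range 0.11 to 7.26). Ratios therefore spread less among broad peaks, and the highest of the list lay elsewhere. Within the members the median was 3.19 at 5 to 6 kb, 3.20 at 6 to 8 kb, 3.29 at 8 to 10 kb, 3.39 at 10 to 20 kb and 3.71 at 20 kb or wider. Across the members width and ratio had a Spearman correlation of 0.22 (n = 1113), against -0.19 across the 77391 narrower peaks; the points come from the same 2 libraries. The linear ratios of this list share a step of 2.64. A ratio equal to a whole number of such steps (within 1e-06), as a very low input count can give, was found in 0.988% of the members, 1.69% of peaks of 2 to 5 kb and 13.3% of those under 2 kb.

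**Figure D1:**
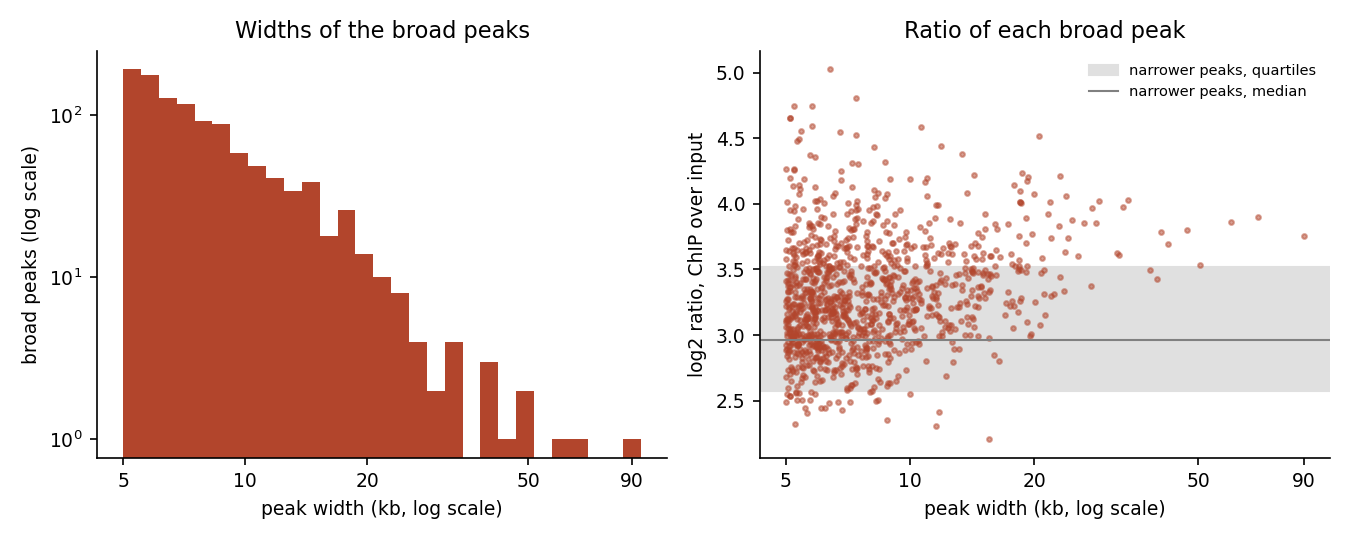
The left panel counts the broad peaks by width in kb (both axes logarithmic), and the right panel plots the log2 ratio of each broad peak against its width, with the median (2.96) and quartiles (2.58 and 3.52) of narrower peaks as a line and band. Counts fall steeply from 5 kb, and the 40 peaks of 20 kb or wider have ratios whose lowest value is 3.08.

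The widest members lay on genes of DNA repair, DNA methylation and other functions. The peak over FANCA, a Fanconi anaemia repair protein, and the end of ZNF276 was 90.2 kb wide with a log2 ratio of 3.75 (chr16:89725242-89815392, coordinates as deposited, hg38). It was followed by DYNC1H1, the heavy chain of cytoplasmic dynein (69.7 kb, 3.90, chr14:101985264-102054924), and by GCN1 (60.1 kb, 3.86, chr12:120124236-120184367). AGO2, the slicing Argonaute of microRNA silencing, had 50.6 kb, and SPG7, a mitochondrial protease, had 46.9 kb. DNMT1 had 40.6 kb, the topoisomerase gene TOP3A 38.1 kb, and UHRF1, which brings DNMT1 to replicated DNA, 33.9 kb. The log2 ratios of these 8 peaks lay between 3.49 (TOP3A) and 4.03 (UHRF1).

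Members of median width looked much alike in setting. The 5 nearest the median lay in SLC5A6, a vitamin transporter (log2 ratio 2.85), SH3BP4 (3.82), the leucyl-tRNA synthetase gene LARS1 (3.29), the chaperone gene DNAJB6 (3.68) and COX5A, a subunit of cytochrome c oxidase (3.33). The highest ratio of all members was 5.03 in HCFC1, a cofactor of chromatin-modifying complexes (chrX:153957714-153964108). Next came 4.81 at the lncRNA gene FAM230C and 4.75 in PRKDC, the kinase of DNA end joining. FAM230C held only 1.37 kb of its peak of 7.40 kb. The lowest were 2.205 at the pseudogene CROCCP2, 2.31 in NBPF14, another gene with near-identical copies, and 2.32 in NFRKB.

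Broad peaks lay in protein-coding genes. The midpoint fell within the span of one for 1084 members (97.4%, 96.3 to 98.2%), against 93.7% (93.0 to 94.4%) of peaks of 2 to 5 kb and 78.2% (77.9 to 78.5%) of peaks under 2 kb. Midpoints outside protein-coding and lncRNA genes made up 1.98% of the members, 5.13% and 16.9%, in the same order. By bases the order was the same: 96.5% of the bases of broad peaks lay in protein-coding genes, 93.8% at 2 to 5 kb and 80.1% under 2 kb, while protein-coding genes spanned 41.6% of the chromosomes up to their last gene. Of the members, 914 (82.1%, 79.7 to 84.3%) lay wholly inside a gene, 977 touched exactly 1 protein-coding gene, and 121 (10.9%) touched 2 or more, a count that grows with width by construction.

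The members overlapped 832 of 19974 protein-coding genes by 1 bp or more, a background of 4.17% for the gene lists below. Any peak was found in 61% of genes. Of the 832 genes 570 had exactly 1 broad peak, 262 had 2 or more, 83 had 3 or more and 13 had 5 or more. At least 50% of the span lay under broad peaks in 182 genes, 0.911% of all protein-coding genes, and 15 genes were covered to at least 90%. In the median gene broad peaks took up 26.5% of the span.

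Genes with a broad peak were dense in narrower peaks too. They held a median of 9 narrower peaks (quartiles 5 and 16.3), against 3 (quartiles 1 and 6) in the 11349 genes that had narrower peaks alone. Narrower peaks alone covered 30.4% of the summed span of the former and 5.70% of the latter. Lengths differed far less, with medians of 37.3 kb and 34.1 kb, and 12.1 kb in the 7793 genes without a peak. Very short and very long genes seldom held a member: the share was 0.791% under 5 kb, 3.70% at 10 to 20 kb, 7.54% (6.81 to 8.33%) at 20 to 50 kb, 6.36% at 50 to 100 kb, 2.22% at 200 to 500 kb and 0.318% (0.00806 to 1.76%) at 500 kb or longer. Among the longest genes 72.3% had a peak of some width, against 70.8% at 20 to 50 kb.

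**Figure D2:**
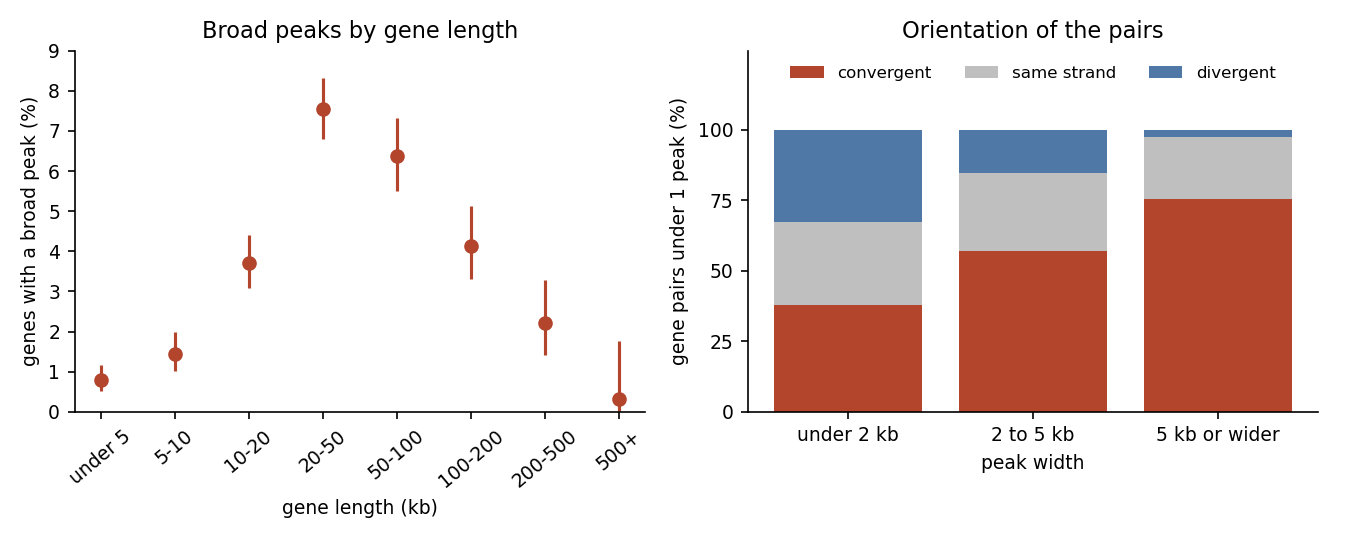
The left panel gives the share of protein-coding genes with a broad peak by gene length in kb, with 95% Clopper-Pearson intervals as bars. The right panel gives the orientation of the gene pairs that share a peak in each width class, in percent, counted once per peak, with the convergent share at 38.0% under 2 kb, 57.1% at 2 to 5 kb and 75.3% at 5 kb or wider.

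Along genes, broad peaks lay towards the 3′ end and seldom covered the 5′ end. Strand came from the RefSeq promoter table, which gave it for 700 of the 832 genes (84.1%). The 656 of these that were 10 kb or longer were divided into 10 equal parts, numbered from the 5′ end. Broad peaks covered 2.74% of part 1, 9.74% of part 2, 20.4% of part 5, 37.6% of part 9 and 33.2% of part 10. Narrower peaks in the same genes were spread more evenly, from 27.2% of part 1 to 34.1% of part 10. In genes with narrower peaks alone part 1 was covered to 6.195%, part 2 to 3.86% and part 10 to 7.21%.

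The lean to the 3′ side grew with width. Over stranded genes of 10 kb or longer, 70.7% of the bases of broad peaks lay in parts 6 to 10, against 63.4% for peaks of 2 to 5 kb and 53.7% for peaks under 2 kb. Parts 1 to 3 held 11.9%, 17.4% and 28.7% of the bases, in the same order.

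**Figure D3:**
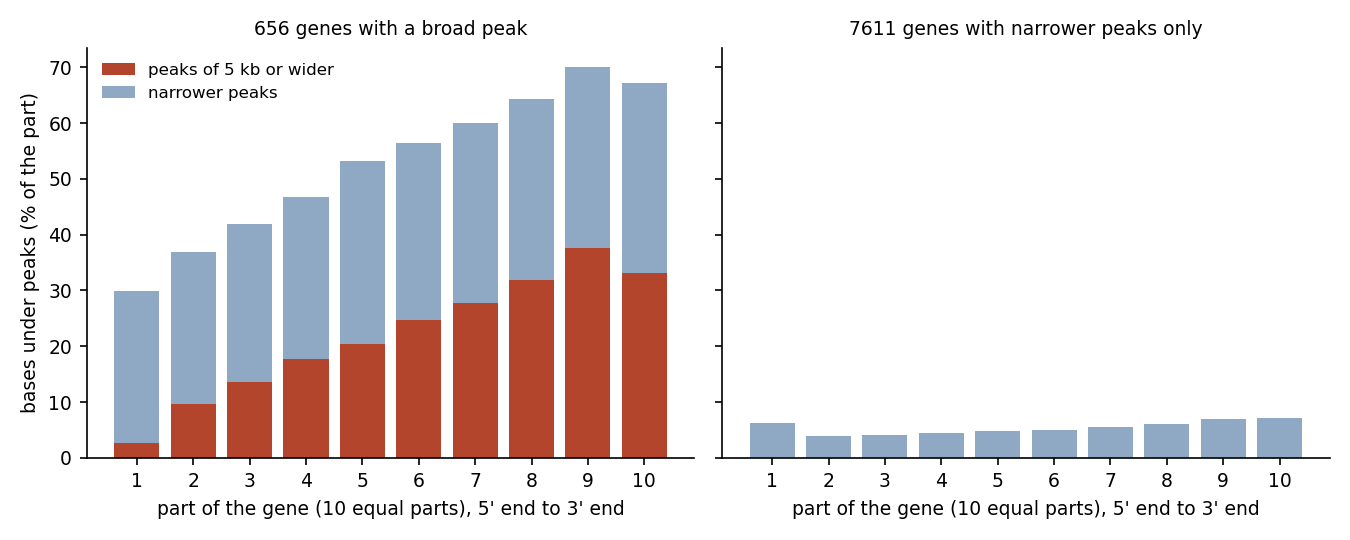
Bars give the percent of bases under peaks in each of 10 equal parts of the gene from the 5′ to the 3′ end, red for peaks of 5 kb or wider and blue for narrower ones, in 656 genes with a broad peak and 7611 genes with narrower peaks alone (both 10 kb or longer, with a known strand). The red part rises from 2.74% in part 1 to 37.6% in part 9.

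Gene ends gave the same picture. Of the 949 broad peaks over a gene of known strand, 21 overlapped a 5′ end (2.21%, 1.37 to 3.36%) and 172 a 3′ end (18.1%, 15.7 to 20.7%). Peaks under 2 kb had the reverse order, with 7.38% over a 5′ end and 2.14% over a 3′ end, and peaks of 2 to 5 kb stood between them at 4.83% and 6.65%. So the widest class had the lowest share over 5′ ends. With peaks within 1 kb joined before the width limit, 12.1% of the regions overlapped a 5′ end and 26.02% a 3′ end. Counted by gene, the 5′ end lay under a broad peak in 23 of 700 genes (3.29%, 2.09 to 4.89%) and under a narrower peak in 420 (60%, 56.3 to 63.7%). The 3′ end lay under a broad peak in 220 (31.4%, 28.0 to 35.0%) and under a narrower one in 192 (27.4%). With the RefSeq start of the promoter table in place of the outermost end, 24 genes had a broad peak at the start. In the 9258 stranded genes with narrower peaks alone, 41.5% had a peak over the 5′ end and 13.4% over the 3′ end.

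Single genes show how the peaks were laid out. In SPG7 narrower peaks sat at the start, and 1 broad peak began 2.66 kb inside the gene and ended 0.158 kb past its 3′ end. In GCN1 a broad peak lay from 2.82 to 10.3 kb, the 60.1 kb peak followed, and it ran 2.97 kb beyond the 3′ end. DNMT1 had 4 narrower peaks and a peak of 2 to 5 kb in its first 12 kb before the first broad peak at 13.1 kb. In UBR4, an E3 ubiquitin ligase, 9 broad peaks began 31.7 kb inside the gene and the last ended 3.48 kb past it. In TRIO, a guanine nucleotide exchange factor and by far the longest of these genes at 367 kb, the first of 7 broad peaks began at 173 kb.

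**Figure D4:**
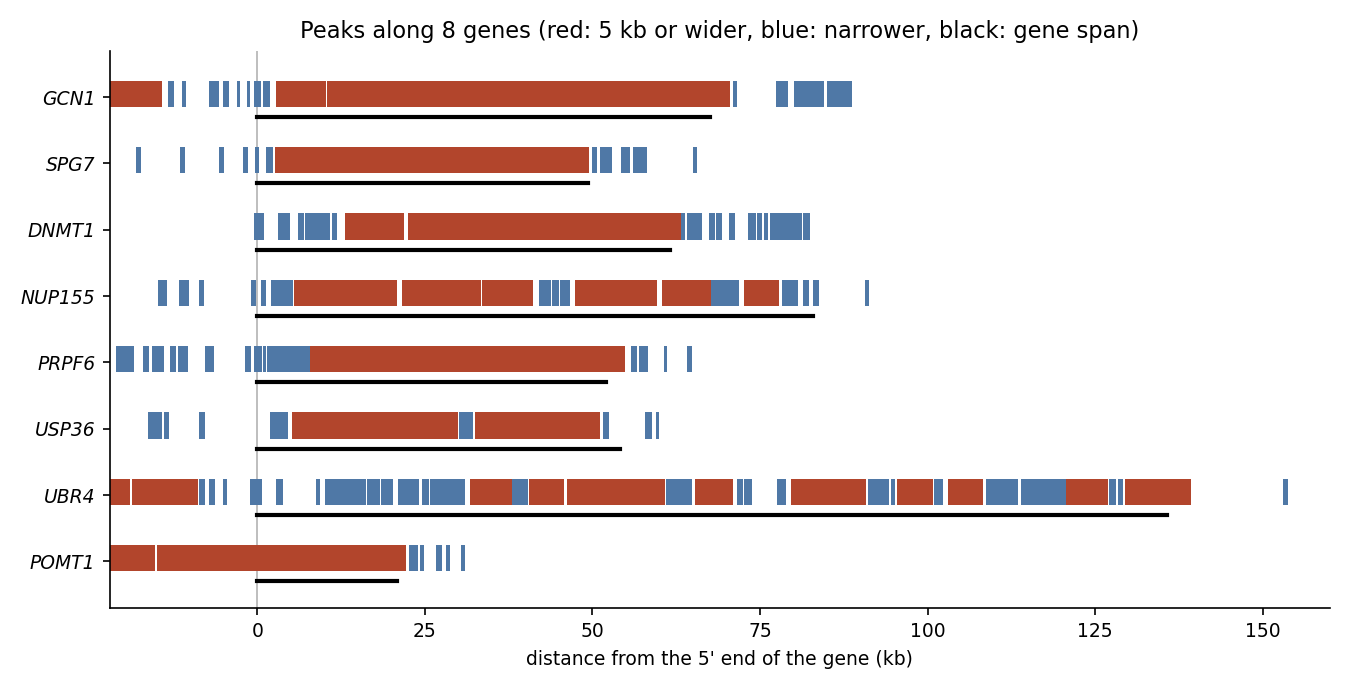
Peaks along 8 genes, drawn by distance in kb from the 5′ end, with broad peaks in red, narrower peaks in blue and the gene span as a black line. In 7 of the genes the first broad peak over the gene begins between 2.66 kb (SPG7) and 31.7 kb (UBR4) inside the gene. In POMT1 a red block that also covers part of the upstream gene PRRC2B crosses the 5′ end.

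The distance of the edges could be read best in the 130 stranded genes of 10 kb or longer with at least 50% of their span under broad peaks. The first edge lay a median of 4.93 kb inside the 5′ end (quartiles 2.80 and 7.81 kb), more than 2 kb inside in 109 of them. The last edge lay a median of -0.272 kb from the 3′ end (quartiles -2.60 and 1.08 kb, negative values inside the gene), and it was within 2 kb of that end in 66. Over all 656 genes the last edge lay further in, at a median of -3.00 kb (quartiles -10.5 and 0.333 kb), within 2 kb of the 3′ end in 183 (27.9%). In these 656 the first edge had a median of 16.3 kb, and the centre of the covered bases lay in the 5′ part in 131 (19.97%).

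The exceptions were few enough to name some, chosen after their values were seen. A broad peak overlapped the 5′ end of POMT1, of STAU1, which binds double-stranded RNA, and of the adjacent helicase gene DDX27. The same was found for SUGP2 and its neighbour ARMC6, and for PKN3, BSCL2, NOP2, CDK10 and DNAJC5. NPIPA9 was among the 23 genes as well and has near-identical copies. Of the 21 broad peaks over a 5′ end, 15 overlapped a 3′ end too. Some reached only slightly into a named gene. A peak over TPD52L2 held 0.07 kb of DNAJC5, and a peak over CHD4 held 0.256 kb of NOP2. In the pairs STAU1 with DDX27 (21.1 kb, log2 ratio 3.49) and SUGP2 with ARMC6 (13.0 kb, 3.22) a broad peak spanned the region between 2 starts.

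Where a broad peak touched 2 genes, the genes mostly faced each other. Counted once per peak, strand was known for both genes in 73 such pairs: 55 were convergent (75.3%, 63.9 to 84.7%), 16 lay on the same strand and 2 were divergent, while a further 39 pairs had a gene without strand. Pairs under peaks of 2 to 5 kb were convergent in 57.1% and divergent in 15.3%, and those under peaks of less than 2 kb in 38.0% and 32.8%. Some pairs lay under several peaks. With each pair counted once per width class, 52 of 69 were convergent under broad peaks (75.4%, 63.5 to 84.9%), 83 of 151 at 2 to 5 kb (54.97%) and 346 of 1128 under 2 kb (30.7%). For pairs whose spans do not overlap, 23 of 35 were convergent under broad peaks (65.7%, 47.8 to 80.9%) and 1 was divergent. Under peaks of less than 2 kb 8.52% of such pairs were convergent and 75.8% divergent. Among all neighbouring pairs that overlap or lie within 5 kb, 34.2% were convergent, 29.6% divergent and 36.2% on the same strand. The orientations come from the same peaks as the gene ends above and are not separate from them. A peak over a 3′ end that reaches another gene tends to touch a convergent pair. A peak can only join spans less than its own width apart, so the width classes and the 5 kb limit cover unlike gaps.

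The convergent pairs included genes of unlike function. The peak of 32.9 kb over PFKP, the platelet type of phosphofructokinase, and the mitochondrial peptidase gene PITRM1 had a log2 ratio of 3.98. NSD2, a methyltransferase of lysine 36 on histone H3, shared a peak of 24.1 kb (3.74) with NELFA, a subunit of the negative elongation factor. DNAJC5 and UCKL1 shared 23.6 kb (3.34), and PGAM5 and ANKLE2 shared 23.1 kb (4.21). These pairs were chosen after their values were seen.

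Of the 15 genes covered to at least 90%, 7 were 10 kb or longer and 8 were shorter. Of the genes of 10 kb or longer, POMT1 was covered to 99.7% of its 20.9 kb, FANCA to 98.4% of 79.1 kb and GCN1 to 95.8% of 67.5 kb. BRD9, a subunit of a BAF remodelling complex, reached 95.4%, SPG7 94.6%, and NOP53, a ribosome assembly factor, 94.1%. FASN, the fatty acid synthase gene, reached 93.1% under 1 peak with a log2 ratio of 4.18. ERCC2, a helicase of TFIIH, and HGS, which sorts ubiquitinated receptors at endosomes, both came just under 90%, and VPS4A, the ATPase of the ESCRT pathway, 89.0%.

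Other genes collected many bases in pieces. UBR4 had 9 broad peaks (66.3 kb, 48.8% of the gene), KNTC1, a kinetochore checkpoint gene, had 8 (65.6 kb, 66.2%), and NUP155 had 8 (59.6 kb, 71.9%). TRIO had 7 (76.7 kb, 20.9%) and CMIP 6 (37.5 kb, 14.1%). The myosin phosphatase partner MPRIP, the chromatin reader gene ZMYND8, TRRAP, the receptor phosphatase gene PTPRF and NCAPD3, a condensin subunit, had 5 each. Among the 20 genes with the most covered bases were also PRPF6 (44.1 kb, 84.9%), GOLGA3 (44.1 kb, 73.3%), USP36 (43.3 kb, 80.1%), UHRF1 (42.5 kb, 72.0%), ZC3H18 (41.98 kb, 68.2%), SBNO1 (41.3 kb, 54.5%) and SF3B3 (40.5 kb, 75.2%). Along NUP155 the 8 log2 ratios ran from 2.55 to 3.53, along TRIO from 2.84 to 3.64 and along UBR4 from 3.00 to 3.69.

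By function, the shares were highest in lists of nuclear transport, cytoskeleton, splicing and translation. The share of genes with a broad peak was counted in 43 lists of 2878 names, beside the 4.17% of all protein-coding genes. It lay above that level in 24 lists, with the whole interval above it in 12, below it but not at 0 in 4, and at 0 in 15. No test was made of any list, because members and lists were chosen with earlier results of these data known. The intervals cover counting error alone, are not adjusted for the number of lists, and support nothing. Lists differed in peaks of any width too, which were found in 100% of the nuclear pore genes and 97.4% of the NF-kB list, against 61% of all genes, and their part in the shares was not tested.

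Nuclear pore and transport genes stood highest, with 18 of 39 (46.2%, 30.1 to 62.8%), at a median gene length of 59.4 kb. After NUP155 came NUP160 (4 peaks, 36.7 kb, 52.1% of the gene), the inner ring gene NUP188 (3 peaks, 35.4 kb, 59.5%) and RANGAP1, which drives hydrolysis of GTP on RAN (4 peaks, 30.6 kb, 53.1%). Splicing factors and hnRNPs had 17 of 42 (40.5%, 25.6 to 56.7%) at a median length of 22.3 kb. PRPF6, SF3B3, the helicase gene SNRNP200 (26.5 kb, 85.0%) and PRPF8, the core protein of the spliceosome (23.3 kb, 67.9%), led them. Translation factors and aminoacyl-tRNA synthetases had 16 of 43 (37.2%, 22.98 to 53.3%), with GCN1, the alanyl-tRNA synthetase gene AARS1 (31.7 kb, 85.2%), EIF3A (28.4 kb, 60.2%) and EIF3B (19.3 kb, 72.3%). EIF3C, a further hit, has a near-identical copy. Ribosomal protein genes, which are short (median 5.05 kb), had 2 of 44 (4.55%), RPL22 among them, near the level of all genes.

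Actomyosin and focal adhesion genes had 18 of 43 (41.9%, 27.0 to 57.9%), at a median length of 107 kb. Among those with the most bases were TRIO, the non-muscle myosin gene MYH9 (34.3 kb, 32.1%) and MYO10, a myosin of filopodia (31.3 kb, 11.4%). The matrix and its receptors did otherwise, with 3 of 39 integrin, laminin and collagen genes (7.69%), namely COL13A1, ITGA3 and LAMA5. LAMA5 counted through 2.71 kb of a peak shared with ADRM1. Kinesins, dyneins and spindle genes had 7 of 40 (17.5%), among them DYNC1H1, KIFC3, TPX2 and KIF2C. Exchange factors for small GTPases had 3 of 45 (6.67%), ARHGEF18, ARHGEF2 and DOCK5, although TRIO itself is an exchange factor. ARHGAP genes had 2 of 35 (5.71%), ARHGAP1 and ARHGAP44, the latter through 1.42 kb under a peak mostly over ELAC2. TBC1D genes had 2 of 43 (4.65%), TBC1D9B and TBC1D14.

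Chromatin and transcription genes lay above the level of all genes as well. Remodellers had 9 of 32 (28.1%, 13.7 to 46.7%), with the NuRD helicase gene CHD4 (28.7 kb, 77.1%), EP400 (29.0 kb, 22.2%), SRCAP (18.2 kb, 43.0%) and SMARCA4 (16.7 kb, 16.5%). Genes of RNA polymerase II, Mediator and elongation had 9 of 40 (22.5%, 10.8 to 38.5%), with the elongation factor gene SUPT6H (28.4 kb, 70.1%), CDK12 (28.0 kb, 26.4%), MED1 (24.3 kb, 51.7%) and POLR2A, the largest polymerase subunit (21.1 kb, 69.8%). Histone methyltransferases and demethylases had 9 of 45 (20%, 9.58 to 34.6%), led by NSD2 (25.7 kb, 23.2%), DOT1L (24.4 kb, 35.6%), KMT2A (16.2 kb, 18.0%) and SETD1B (14.6 kb, 34.4%). The last pair write methylation on lysine 4, the residue that KDM1B demethylates. Acetylation and deacetylation genes had 5 of 34 (14.7%), among them TRRAP, CREBBP and SIN3B.

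Genome maintenance, protein turnover and traffic followed. DNA replication genes had 8 of 42 (19.05%, 8.60 to 34.1%), with the polymerase epsilon gene POLE (30.2 kb, 47.5%), RPA1, the clamp loader gene RFC2 and the helicase gene MCM2. Repair and Fanconi anaemia genes had 8 of 49 (16.3%, 7.32 to 29.7%), with FANCA, ERCC2, PARP1 (15.6 kb, 33.0%) and PRKDC. Ubiquitin ligases and deubiquitinases had 7 of 44 (15.9%, 6.64 to 30.1%), with UBR4, USP22, UBE3C and RNF213. Proteasome subunits had 4 of 36 (11.1%), PSMD3, PSMD11, PSMC3 and PSMD8, the last through 1.23 kb of a peak shared with GGN. Golgi, endosome and membrane traffic genes had 5 of 43 (11.6%), among them GOLGA3, AP3D1, SEC16A and EPN1. Glycolysis and hypoxia genes had 4 of 42 (9.52%), namely PFKP, PFKFB3, PKM and GPI.

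Lists of signalling genes ran from 2.56 to 8.11%, and their intervals held the 4.17% of all genes. Growth factor receptors, RAS and MAPK genes had 3 of 40 (7.50%), the receptor kinase genes AXL (2 peaks, 18.5 kb, 43.5%) and EPHA2 (15.4 kb, 48.5%) and the kinase gene MAP2K2. JAK-STAT, SOCS and IRF genes had 3 of 37 (8.11%), among them PIAS4, which attaches SUMO to proteins, and the phosphatase gene PTPN11. PI3K, AKT and mTOR genes had 2 of 38 (5.26%), PDPK1 and TSC2, the latter through 3.26 kb of a peak shared with PKD1. NF-kB and TNF response genes had 1 of 39 (2.56%), MAP3K14, and antigen presentation genes 1 of 33 (3.03%), CANX. Of the basal and mesenchymal markers that describe this cell line, AXL was the 1 hit of 22 (4.55%). ZNF genes had 12 of 510 (2.35%, 1.22 to 4.07%), with ZNF276, ZNF282, ZNF787 and ZNF384 ahead. This whole interval lay below the 4.17% of all genes. Solute carriers had 8 of 347 (2.31%, 1.00 to 4.49%), with SLC17A9, SLC4A2, SLC7A5 and SLC7A1 ahead.

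No broad peak was found in 15 lists, most of them of immune, tissue-specific or clustered genes. They were interferon-stimulated and nucleic acid sensing genes (0 of 49, which allows up to 6.12%, the share that 3 genes of the list would make), cytokines and chemokines (0 of 47, up to 6.38%), cytokine receptors (0 of 40, up to 7.50%) and immune checkpoint genes (0 of 34, up to 8.82%). The AP-1 and immediate early list had 0 of 39 (up to 7.69%), although 33 of them had a narrower peak; they are short, with a median of 7.17 kb. Voltage-gated and ligand-gated channels and synapse genes had 0 of 42 each (up to 7.14%), the latter with a median length of 963 kb and narrower peaks in 28. Liver-specific genes (0 of 34, up to 8.82%), lymphocyte genes (0 of 36, up to 8.33%) and luminal markers (0 of 18, up to 16.7%) had none. Keratins (0 of 55, up to 5.45%), HOX genes (0 of 39, up to 7.69%), clustered protocadherins (0 of 51, up to 5.88%), replication-dependent histones (0 of 76, up to 3.95%) and olfactory receptors (0 of 390, up to 0.769%) completed the 15. The exact Clopper-Pearson bounds were higher than these limits, at 4.74% for the histones, and lay below 4.17% for the olfactory receptors alone (0.941%). In the other 14 lists a share equal to that of all genes could not be told from 0 at these sizes. Several of the lists hold short genes. Median lengths were 0.4965 kb in histones, 2.985 kb in olfactory receptors, 3.785 kb in HOX genes and 6.43 kb in keratins. Over all protein-coding genes the share was 0.791% under 5 kb and 1.44% at 5 to 10 kb. The olfactory bound did not fall below the former. Peaks of any width were found in 10 of the 390 olfactory receptors. The part of length and of peak number was not tested.

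**Figure D5:**
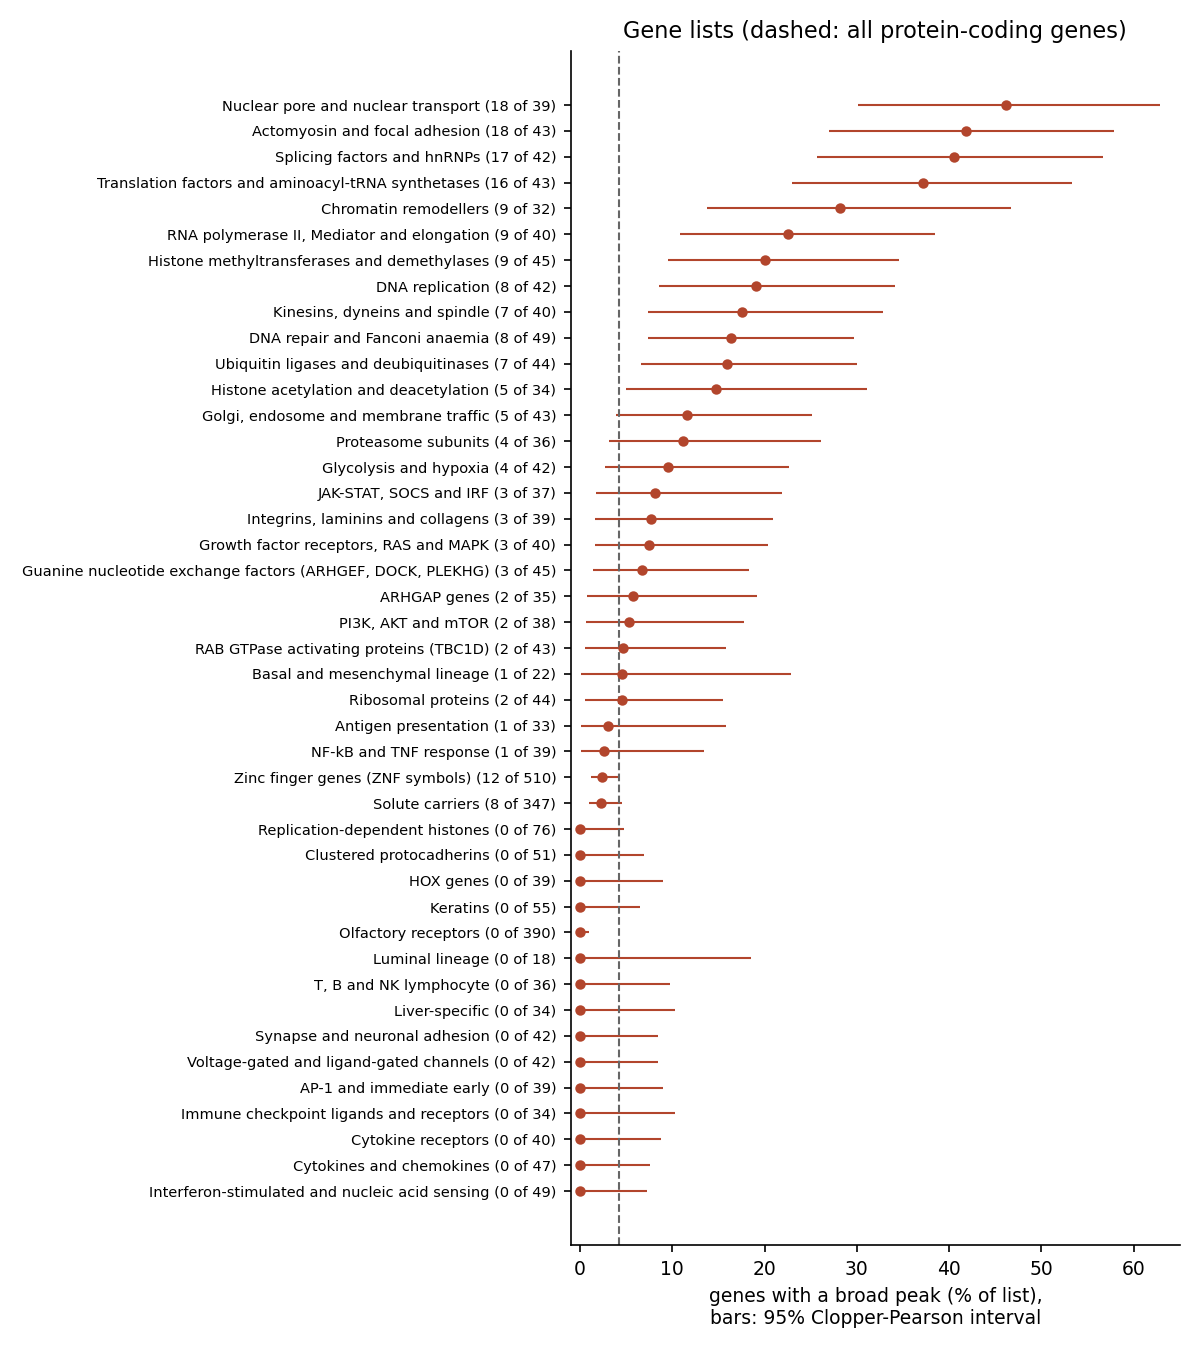
Points give the percent of each list's genes that a broad peak overlaps, with 95% Clopper-Pearson intervals as bars and the 4.17% of all protein-coding genes as a dashed line. The nuclear pore, actomyosin, splicing and translation lists stand at 37.2 to 46.2%, and 15 lists stand at 0.

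Broad peaks had close neighbours, most of them on the same gene. The nearest other broad peak lay at a median of 11.6 kb, edge to edge, and within 50 kb for 730 members (65.6%, 62.7 to 68.4%). A broad peak lay within 50 kb of 46.7% of peaks of 2 to 5 kb and 18.0% of peaks under 2 kb. The nearest narrower peak lay at a median of 0.203 kb, within 1 kb for 90.03% of the members. The nearest peak of any width lay at a median of 0.153 kb from a broad peak, 0.244 kb from a peak of 2 to 5 kb and 1.31 kb from a peak under 2 kb. It was within 1 kb for 95.9%, 86.7% and 44.3% of them. Within 20 kb of its edges a broad peak had a median of 12 other peaks (quartiles 9 and 14), and so did peaks of 2 to 5 kb. For 5000 peaks drawn from those under 2 kb the median was 6 (quartiles 2 and 11).

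Joined at 50 kb, the members formed 645 runs: 383 were single peaks, 262 held 2 or more, and 26 held 5 or more. Of the runs with 2 or more members 156 lay over 1 protein-coding gene and 105 over several. Of the 468 adjacent pairs within 50 kb, 385 (82.3%) shared a gene, 145 were at most 1 kb apart and 68 at most 200 bp. The sources used here do not say how regions were joined or split, so part of these runs may be 1 region listed in pieces, which was not tested. Joining all peaks of the list within 1 kb gave 3355 regions of 5 kb or wider over 39.3 Mb, of which 834 held a member.

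The longest runs held 11 members each. One covered GOLGA3, ANKLE2, POLE, CHFR and PGAM5 near the end of the long arm (chr12:132629382-132875512, 246 kb, 53.0% under members, median log2 ratio 3.83). Another lay over UBR4 and the membrane protein insertase gene EMC1 (chr1:19071029-19240794, 170 kb, 53.7%, 3.37), and the third over KNTC1, RSRC2 and ZCCHC8 (chr12:122473422-122623489, 150.1 kb, 60.5%, 2.99). A run of 9 covered MPRIP, the signalosome gene COPS3 and the folliculin gene FLCN (chr17:17075848-17270275), and the 8 peaks of NUP155 filled 82.4% of 72.4 kb (chr5:37293252-37365622).

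The chromosomes differed in their share of broad peaks. It was highest on chromosome 19, at 2.61% of its peaks (121 of 4641, 2.17 to 3.11%), then on 12 (2.45%), 16 (2.17%), 20 (2.01%) and 17 (1.96%). It was lowest on X (0.455%, 5 of 1100), 6 (0.483%) and 13 (0.508%). By gene, 10.6% of the protein-coding genes of chromosome 20 held a member and 0.472% of those on X. Median ratios ran the other way in places, with 2.89 on chromosome 20 and 3.95 on X, where 5 peaks stand behind it. Copy number of the cell line's chromosomes was not measured here. In windows of 2 Mb, the 20 with the most members held 247 of them (22.2%) but 6.61% of all peaks, led by 122 to 124 Mb on chromosome 12 with 25.

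The promoters of genes with a broad peak had more CpG than those of other genes. Over the 250 bases upstream of the start, the median GC share was 66.8% (quartiles 60.8 and 74%) for the 700 genes with a broad peak, 64.8% for the 9258 with narrower peaks alone and 56.4% for the 5854 without a peak. The observed over expected CpG ratio was 0.882, 0.809 and 0.436, and it was at least 0.6 in 88.9%, 76.8% and 39.2% of the promoters.

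Motif letters were counted in the same 250 bases on both strands, with every exact match taken. CCGGAAGT, an ETS-type motif, stood in 11% (8.78 to 13.6%) of the promoters of genes with a broad peak, 6.50% of those with narrower peaks alone, 2.15% of those without a peak and 5.09% of all 15812. TATAAA, the TATA box, stood in 3.71% (2.44 to 5.40%), 5.76%, 15.4% and 9.25%. GGGCGG, the GC box, stood in 72.3%, 65.5%, 39.0% and 56.0%, and CCAAT in 34.4%, 33.8%, 35.4% and 34.4%. GC content differed between the groups in the same order as the shares of the ETS-type motif and the GC box, and its part in them was not tested.

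The 15 members without a protein-coding gene lay mostly on gene copies. A pseudogene was overlapped by 13 of them, among them PDPR2P (18.0 kb, log2 ratio 3.53, chr16:74330324-74348328), CROCCP2 (15.6 kb, 2.205), SDHAP1 (7.60 kb, 3.52), PDPK2P (6.79 kb, 3.34) and DUXAP9 (6.55 kb, 2.73). SUZ12P1 held 2. Among peaks without a protein-coding gene, 66 of 184 at 2 to 5 kb and 1125 of 13701 under 2 kb overlapped a pseudogene. Over all peaks, the midpoint lay in a pseudogene for 1.44% of the members, 1.85% at 2 to 5 kb and 2.05% under 2 kb. Reads from near-identical copies may be placed on either, so peaks on such copies are uncertain. A lncRNA gene was overlapped by 6 of the 15. In all, broad peaks touched 95 of 18177 lncRNA genes (0.523%), and 8 of these did not overlap a protein-coding gene. The lncRNA genes with the most bases, LOC128966623, EMC1-AS1, RTEL1-TNFRSF6B, LOC107985291 and HNRNPUL2-BSCL2, all overlapped protein-coding genes, and reads of such overlapping genes cannot be told apart.

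Small RNA genes lie in the introns of many host genes, and the broad peaks held 47 microRNA genes (4.69 per Mb of peak) and 33 snoRNA genes (3.30 per Mb). Peaks of 2 to 5 kb held 3.27 and 1.81 per Mb, and peaks under 2 kb 3.19 and 1.31 per Mb. SnoRNA hosts under members included EIF3A (SNORA19), SF3B3 (SNORD111), FASN (SNORD134), TNPO2 (SNORD41 and SNORD135) and HSPA9 (SNORD63), chosen after their values were seen. Of the 1562 hairpins in the RefSeq sequence table, 40 lay whole inside a member. Mature forms were listed for 39 of these, 67 in all, with 61 seeds. Mature forms inside 3 of the widest of these peaks are shown with the seed, bases 2 to 8, in capitals; their levels were not measured.
hsa-miR-4498 (chr12:120155473-120155494, in GCN1, peak of 60.1 kb): uGGGCUGGcagggcaagugcug
hsa-miR-4747-5p (chr19:4932687-4932708, in UHRF1, peak of 33.9 kb): aGGGAAGGaggcuuggucuuag
hsa-miR-943 (chr4:1986403-1986423, in NELFA, peak of 24.1 kb): cUGACUGUugccguccuccag
The 3 seeds shown differ from each other.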

How the data were processed

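Anti-FLAG ChIP and input libraries of MDA-MB-231 cells, 1 each, were compared by the authors in 1 deposited peak list, whose columns are chromosome, start, end and log2 ratio (ChIP over input). Per the submitters' processing notes the tools included Trim Galore 0.4.5 and Bowtie2 2.2.9, and the build was hg38. Not given in the sources used here are the caller of the peaks, its cutoffs, any joining of regions and whether starts count from 0 or 1. Sequencing depth is unknown, and no other per-sample columns were left aside (0).

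Peak widths were end minus start. Genes (19974 protein-coding, 18177 lncRNA) came from the RefSeq table of GRCh38.p14. Strand was found for 15812 protein-coding genes (79.2%) by matching gene identifiers to RefSeq promoters; the others, including those of chromosome 8, were left out of positions, orientations and promoters. Overlap meant 1 bp or more, and no test was run. Counts were made with Python 3.11.15, pandas 2.3.3, numpy 2.4.6, scipy 1.17.1 and matplotlib 3.10.9, and checked on simulated data. Members and gene lists were chosen with earlier results of these data known. Genes were named by bases covered (20), share of span covered (10), number of broad peaks (10), up to 4 per list and 5 lncRNA genes; peaks were named by width, ratio and distance from the limit. A few of the genes so named are not reported here. Alternatives changed the width limit, the joining of peaks, the strength of the list, the overlap, the gene classes and the neighbour distance, and left out the widest peaks.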

Additional observations from a re-analysis of the deposited data

How the results depend on the processing

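Of 77 alternative values over 14 results, 43 stayed close to the value reported and 34 moved. Close meant within the counting interval or, for counts, within 1.5 times. For the share of covered bases and the position within genes it meant within 5% of the value reported. A limit of 4000 bp gave 1706 members with 14.8% of the covered bases, 15.1% over a gene end, 8.91% over 2 or more genes, 73.2% with another member within 50 kb, a median log2 ratio of 3.22 and 14.6% over a 3′ end. A limit of 8000 bp gave 444 members with 6.89% of the covered bases, 98.4% with the midpoint in a protein-coding gene, 26.1% over a gene end, 13.3% over 2 or more genes, 409 genes, 46.4% within 50 kb, a ratio of 3.38 and 26.05% over a 3′ end. Joining peaks within 1 kb first gave 3355 members with 41.1% of the bases under all joined regions and 94.96% in a protein-coding gene. Of them, 29.9% lay over a gene end, 15.8% over 2 or more genes and 75.1% within 50 kb of another. They overlapped 2687 genes of median length 31.3 kb. The joined regions overlapped 5′ ends in 12.1% and 3′ ends in 26.02%, had 65.4% of their bases in the 3′ part of genes and 60.95% convergent pairs: the low share over 5′ ends depends on how peaks were listed, while the 3′ share stayed the higher. Peaks at or above the median ratio of the list gave 873 members, 58.99% within 50 kb and a ratio of 3.395. These members held 18.55% of the bases under the peaks so kept, a smaller total than that of the whole list. Without members of 20 kb or wider the share of bases was 10.3%. Neighbour distances of 20 and 200 kb gave 57.6% and 78.5%. The count of lists above all genes ran from 22 to 25 over its 5 alternatives. The alternatives for gene ends, positions within genes and pairs, and for the lists with joined, stronger and no widest peaks, were chosen after seeing the data. Without chromosomes 12, 16, 17 and 19 the 3′ part held 73% of the bases. No paired analysis was possible because each group held 1 library. Without replicates, read counts or an untagged control, no value here has an error beyond counting.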
